A study of Mus musculus with 15 samples.

Results

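The potassium channel gene family was taken as the protein-coding genes whose symbol begins with Kcn, further letters and a number. Of 39331 genes in the table, 97 matched that pattern and 93 were protein coding, while 4 were non-coding and were set aside. By symbol, the 93 members comprised 30 pore subunits of voltage-gated (Kv) channels, 10 silent Kv subunits, 15 inward rectifiers (Kir), 14 two-pore channels, 8 channels gated by calcium or sodium and 16 auxiliary subunits. Enough reads for a test were found for 53 of the 93.

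Potassium channels let potassium leave the cell, and so repolarise the cardiac action potential and hold the resting potential near the potassium equilibrium. In the mouse ventricle, Kv4 channels with the auxiliary subunit KChIP2 carry the fast transient outward current, Kv1.5 carries a delayed rectifier current, Kir2 channels set the resting potential, and Kir6 channels open when ATP is low. The currents that shorten the mouse action potential are known to grow after birth, and other members serve vascular muscle and leukocytes.

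The samples were left ventricles of C57BL/6 mice, whose polyadenylated RNA was sequenced. Every group had undergone experimental myocardial infarction. The 4 groups were neonatal hearts of mice given adult T cells (libraries 1, 2, 4 and 5), untreated neonatal hearts (6, 7, 8 and 9), adult hearts with adult T cells (1, 2, 3 and 4) and adult control hearts (5, 6 and 7). No heart without infarction was included, the protocol gives 36 h and speaks of neonatal hearts only, and ages in days and T cell doses are not stated. As the study's title puts adult T cells and neonatal regeneration in question, the members were compared between recipients and controls at each age and between ages. The labels do not say that libraries came from separate animals, so p-values measure the spread between libraries, which may be technical.

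Library totals ran from 21871617 to 34302786 counts, and a floor of 3 counts equalled 0.0875 to 0.137 CPM (counts relative to library size), which covers counting error only. Levels are CPM after scaling by the trimmed mean of M values. Differences are log2 fold changes ± standard error (SE) from 1 quasi-likelihood fit (edgeR) of 16437 genes, with Benjamini-Hochberg adjusted p over all of them and a threshold of 0.05. Neonatal control 8 stood apart from the other neonatal controls. The summed CPM of 8 macrophage markers was 697, 432, 213 and 378 in controls 6, 7, 8 and 9. Library 8 was the lowest, as it was in atrial markers (1629, others 4499 to 5813) and fibroblast markers (1896, others 2644 to 3701). Neutrophil, neuron, skeletal muscle, conduction system and epicardial sums were lowest there too. Sums of ventricular cardiomyocyte (53695), endothelial (931) and Schwann cell markers (7.20) were highest there. In whole ventricle, fewer cells of a type and less RNA per cell cannot be told apart.

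Promoter windows of 5 members are shown because these genes gave contrasting age patterns: Kcna5, Kcnip2 and Kcnd2 were lower, and Kcne3 and Kcnj4 higher, in neonatal ventricles. Each window runs from 250 bases before to 50 after a RefSeq start (GRCm38.p6), is written 5′ to 3′ on the gene's strand, and has its CG dinucleotides in capitals.
Kcna5, chr6:126535506-126535805, minus strand: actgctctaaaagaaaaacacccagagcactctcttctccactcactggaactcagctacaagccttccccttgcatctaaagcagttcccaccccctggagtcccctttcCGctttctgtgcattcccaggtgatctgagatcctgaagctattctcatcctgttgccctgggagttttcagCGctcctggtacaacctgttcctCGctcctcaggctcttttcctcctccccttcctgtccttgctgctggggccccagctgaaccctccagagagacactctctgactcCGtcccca
Kcnip2, chr19:45816014-45816313, minus strand: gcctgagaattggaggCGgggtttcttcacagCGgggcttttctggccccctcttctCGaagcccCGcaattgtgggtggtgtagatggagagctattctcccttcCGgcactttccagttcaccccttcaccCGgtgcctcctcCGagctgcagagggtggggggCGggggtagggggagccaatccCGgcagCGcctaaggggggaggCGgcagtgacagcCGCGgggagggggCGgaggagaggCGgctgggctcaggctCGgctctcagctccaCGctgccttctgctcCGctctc
Kcnd2, chr6:21215096-21215395, plus strand: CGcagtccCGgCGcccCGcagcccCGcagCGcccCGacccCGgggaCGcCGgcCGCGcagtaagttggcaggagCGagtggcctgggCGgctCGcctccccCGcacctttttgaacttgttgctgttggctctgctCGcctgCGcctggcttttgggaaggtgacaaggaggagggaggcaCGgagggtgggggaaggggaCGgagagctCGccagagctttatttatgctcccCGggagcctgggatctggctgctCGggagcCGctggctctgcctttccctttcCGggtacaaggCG
Kcne3, chr7:100176420-100176719, plus strand: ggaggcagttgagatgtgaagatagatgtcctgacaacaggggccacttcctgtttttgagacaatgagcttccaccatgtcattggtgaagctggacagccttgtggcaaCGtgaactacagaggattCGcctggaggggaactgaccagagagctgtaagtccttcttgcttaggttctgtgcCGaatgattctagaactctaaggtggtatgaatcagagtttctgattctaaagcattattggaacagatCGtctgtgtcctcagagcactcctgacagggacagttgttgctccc
Kcnj4, chr15:79505192-79505491, minus strand: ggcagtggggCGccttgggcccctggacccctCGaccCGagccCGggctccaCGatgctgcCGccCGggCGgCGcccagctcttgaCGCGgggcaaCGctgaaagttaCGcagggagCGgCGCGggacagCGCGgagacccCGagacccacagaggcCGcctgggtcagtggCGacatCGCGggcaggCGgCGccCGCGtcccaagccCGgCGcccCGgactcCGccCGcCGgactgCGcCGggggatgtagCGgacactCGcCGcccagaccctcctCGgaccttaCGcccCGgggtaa

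These windows held 4 CG dinucleotides in Kcna5, 18 in Kcnip2, 26 in Kcnd2, 4 in Kcne3 and 41 in Kcnj4, against a median of 7 in all 32851 windows of the table. In the windows printed, the first listed for each gene, CG-poor and CG-rich ones thus occurred on both sides of the age difference. Kcne3 has a second window (chr7:100178433-100178732) with 12 CG dinucleotides, so its place depends on the window taken. Windows were found for 68 of the 93 members. A search of both strands covered 6 short motifs, none of which contains another. TATAAA occurred in 5 of the 68 members (15.7% of all 27025 genes with a window), the MEF2 motif in 2 (4.23%), AAGGTCA in 3 (5.38%), AGATAA in 4 (12.7%), CATTCC in 14 (16.6%) and CAGCTG in 18 (18.3%). A match is a description of letters in these windows. Among the windows printed, that of Kcna5 held CATTCC and CAGCTG, and the other 4 held none of the 6.

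Per kb of transcript, Kcne1 was the most abundant member in every group. This single-span subunit, which assembles with the Kv7.1 pore encoded by Kcnq1, stood at 106 ± 4.99 CPM per kb (SD, n = 3) in adult controls and 78.6 ± 5.08 (n = 4) in neonatal controls. It was followed in adult controls by Kcng2, a silent Kv subunit, at 58.8 ± 2.04, and by Kcnk3, the acid-sensitive leak channel TASK-1, at 56.8 ± 2.85 CPM per kb. The levels of those 2 genes overlapped. Next came Kcnh2, the pore of the rapid delayed rectifier, at 43.98 ± 1.81, and Kcnj11, the Kir6.2 pore of the ATP-sensitive channel, at 43.8 ± 1.36, which also lay within each other's spread. Kcnip2, Kcnq1, Kcnj8, Kcnj5 and Kcnj12 completed the first 10. Together these genes held 84.5% to 85.9% of the family's summed level per kb in adult libraries and 80.5% to 83.2% in neonatal libraries.

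**Figure D1:**
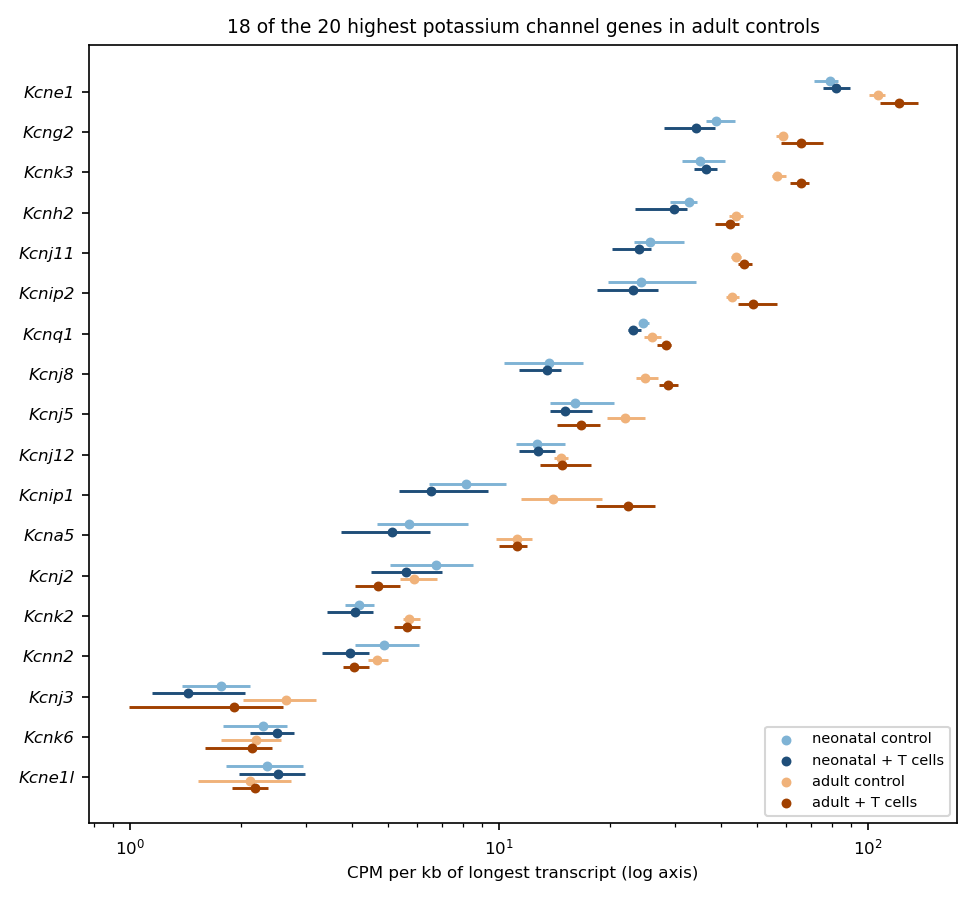
Level of 18 of the 20 most abundant members, as CPM per kb of the longest transcript on a log axis, by group; points are group means and lines run from the lowest to the highest library. Kcne1 is highest in all 4 groups, and Kcnip2 and Kcnk3 lie higher in adult than in neonatal hearts.

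The remaining 40 members did not pass the filter on low counts, and their highest count in any library was 14. They included Kcna3, the Kv1.3 channel of lymphocytes, with at most 8 counts in a library, and Kcnc1, a Kv3 channel, with at most 6. Of these 40 members, 18 never exceeded 3 counts and 5 were listed at 0 in all 15 libraries. The filter was met by 17 of 30 Kv pore subunits, 2 of 10 silent subunits, 9 of 15 Kir genes, 6 of 14 two-pore genes, 6 of 8 ion-activated genes and 13 of 16 auxiliary genes.

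In control hearts the potassium channels differed by age mainly downward: 20 of the 53 tested members were lower in neonates than in adults and 4 were higher. Kcna5, Kcnd2 and Kcnip2, which encode subunits of the main repolarising Kv currents, were all lower in neonates. Over all genes tested, 15.6% were lower and 15.4% higher in this comparison, or 30.9% in either direction. The median log2 fold change was -0.33 over the 53 members and 0.02 over all genes tested. Among the 41 members that averaged 1 CPM or more, 16 were lower and 4 higher. Of the 24 members called, 20 had no overlap between the neonatal and the adult control libraries, as had 85.9% of all genes called. The Kv pore subunits had 8 lower and none higher of 17 tested, and the Kir genes 4 lower and 1 higher of 9. Among 13 auxiliary subunits 4 were lower and 2 higher, among 6 two-pore genes 2 were lower and none higher, and among 6 ion-activated genes 1 was lower and 1 higher.

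Kcna5 (gene ID 16493, chr6:126532551-126535555) encodes Kv1.5, the pore of the ultrarapid delayed rectifier. Its levels were 14.2, 13.4, 23.6 and 14.4 CPM in neonatal controls 6 to 9, and 32.6, 35.2 and 28.1 CPM in adult controls 5 to 7. Neonatal control 8 was the highest of its group but still below the adult libraries, and the log2 fold change was -0.96 ± 0.19 (adjusted p = 0.0014). Kcna7, a further Kv1 pore, lay between 0.637 and 0.733 CPM in neonatal controls and between 1.65 and 1.92 CPM in adult controls (log2 fold change -1.35 ± 0.24, adjusted p = 0.000474).

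The transient outward current was represented by Kcnd2 and Kcnd3, which encode the Kv4.2 and Kv4.3 pores, and by Kcnip2, which encodes the auxiliary subunit KChIP2. Kcnip2 (gene ID 80906, chr19:45792346-45816422) stood at 68.6, 61.5, 106 and 65.8 CPM in neonatal controls and at 128, 139 and 133 CPM in adult controls. The groups did not overlap, although library 8 was again the highest neonatal one, and the log2 fold change was -0.82 ± 0.16 (adjusted p = 0.00153). Kcnd2 (gene ID 16508, chr6:21215346-21729805) was measured at 2.63, 2.25, 4.301 and 3.52 CPM in neonatal and 7.798, 6.77 and 5.397 CPM in adult controls, with a log2 fold change of -1.07 ± 0.31 (adjusted p = 0.0139). These groups did not overlap, but the call was lost without adult control 5 (adjusted p = 0.065). Kcnd3 was low with a wide spread, at 0.426, 0.706, 1.43 and 0.7499 CPM in neonatal and 0.9198, 2.07 and 1.01 CPM in adult controls, and did not pass the test (-0.68 ± 0.49, adjusted p = 0.314). Kcna4, the Kv1.4 pore of the slow transient outward current, was at 8.81 ± 0.557 CPM (SD, n = 4) and 8.63 ± 1.94 CPM (n = 3), a log2 fold change of 0.03 ± 0.15 (adjusted p = 0.893).

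**Figure D2:**
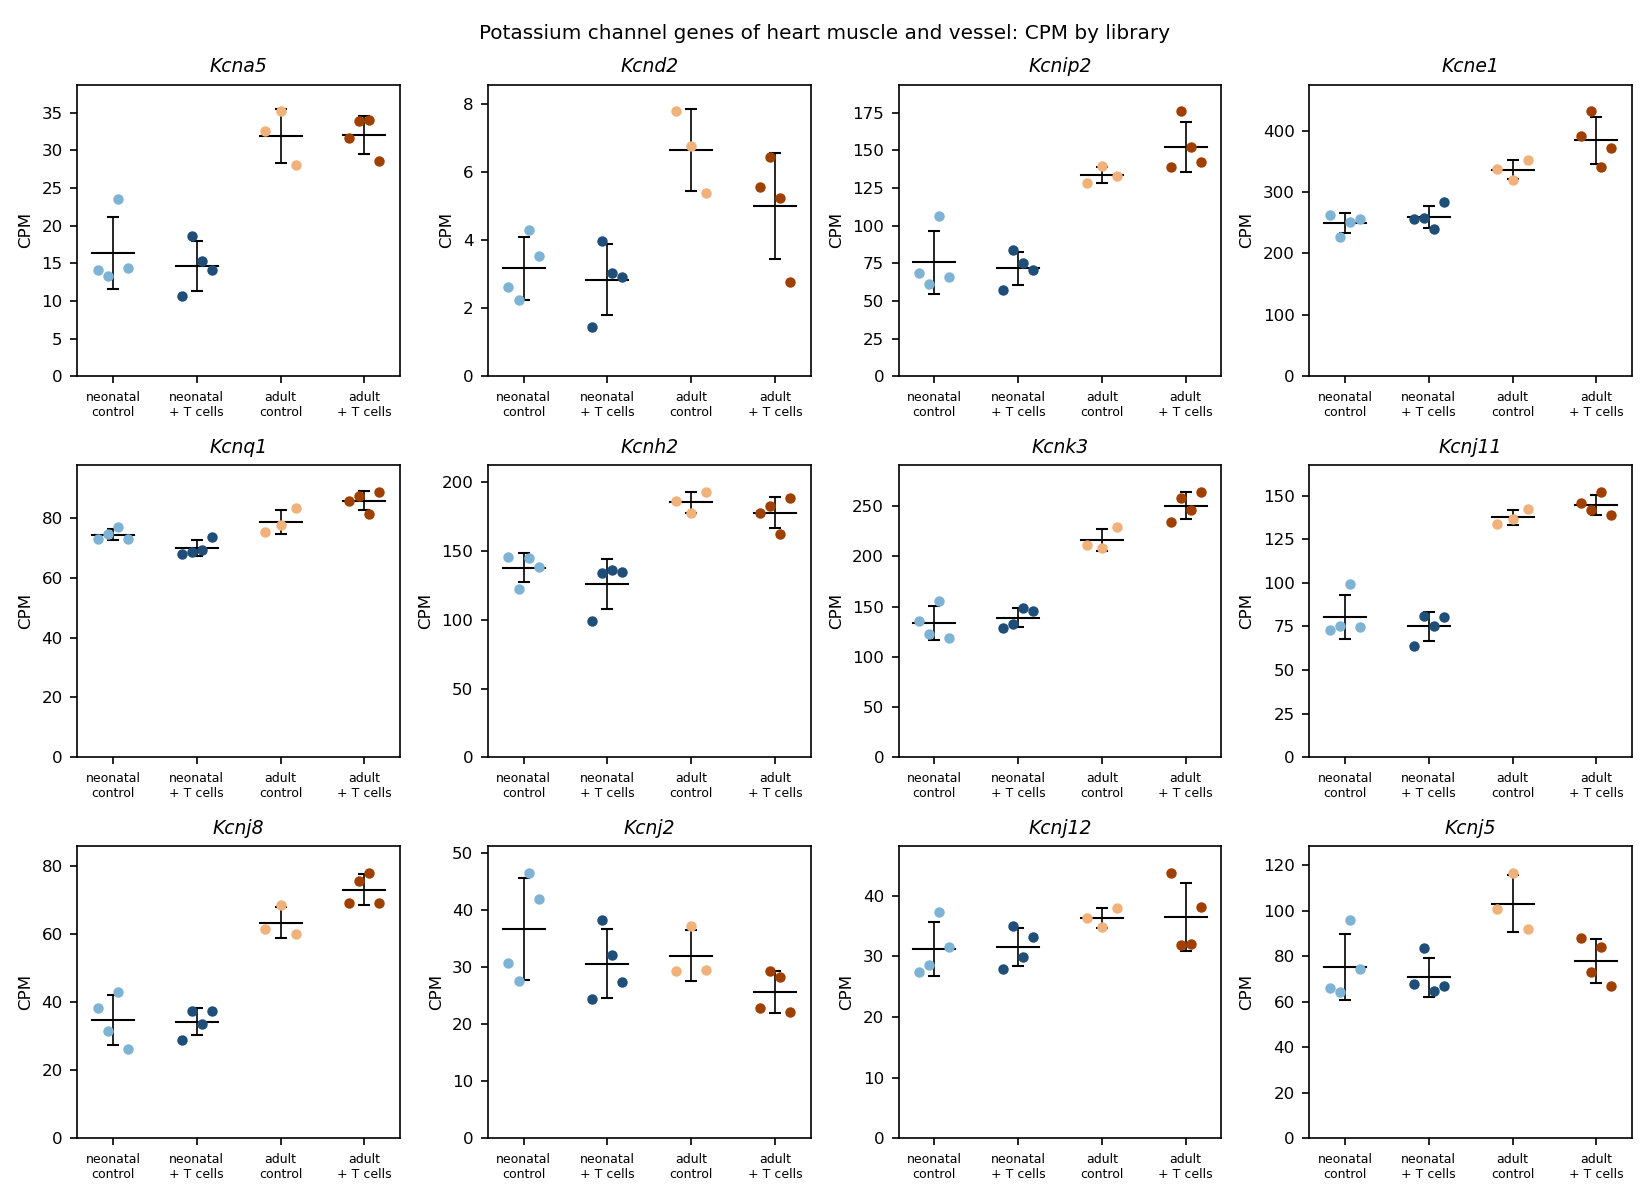
CPM of 12 members in each of the 15 libraries by group; points are libraries, horizontal bars group means and vertical bars SD. Kcna5, Kcnip2, Kcnk3, Kcnj11 and Kcnj8 have all adult libraries above all neonatal ones, whereas Kcnj2 and Kcnj12 overlap.

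Within the slow delayed rectifier, the auxiliary subunit and the pore gave different results. Kcne1 (gene ID 16509, chr16:92346001-92359468) was measured at 263, 226, 252 and 257 CPM in neonatal controls and 338, 320.03 and 352 CPM in adult controls. All adult controls were higher, with a log2 fold change of -0.43 ± 0.09 (adjusted p = 0.00109). Its pore partner Kcnq1 had 73.01, 74.7, 77.1 and 72.8 CPM in neonatal and 75.1, 77.5 and 83.1 CPM in adult controls, with a log2 fold change of -0.08 ± 0.06 that did not pass the test (adjusted p = 0.354). Within each library, the log2 ratio of Kcne1 to Kcnq1 counts was 1.74 ± 0.11 (SD, n = 4) in neonatal controls and 2.10 ± 0.06 (n = 3) in adult controls. The ratios did not overlap, but over the 5 ratios examined in this comparison the adjusted p was 0.143 (exact two-sided permutation test, p = 0.0286, the smallest this design can give). Kcnh2, the pore of the rapid delayed rectifier, was lower in neonates at 123 to 146 CPM against 178 to 193 CPM (-0.43 ± 0.10, adjusted p = 0.00325).

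Among auxiliary subunits, Kcne4, a Kv modulator, was 8.11 ± 1.77 CPM (SD, n = 4) in neonatal and 5.603 ± 1.26 CPM (n = 3) in adult controls (0.53 ± 0.21, adjusted p = 0.0564), and did not pass the test. Kcne2, a small subunit of several Kv pores, was below 1 CPM in every control. Kcnab1, a cytoplasmic beta subunit of Kv1 channels, was lower in neonates (-0.73 ± 0.25, adjusted p = 0.0369), and this call was lost in 7 of 15 alternative analyses. Kcnip1, a Kv channel-interacting protein, was also lower (-0.78 ± 0.23, adjusted p = 0.0231), with 26.5, 42.7, 30.8 and 33.4 CPM in neonatal and 47.3, 47.1 and 77.7 CPM in adult controls. Its call was lost without adult control 7, neonatal control 6 or neonatal control 8, and also with no filter on low counts. Kcnip1 spans 364010 bases, carried fractional counts in all 15 libraries and encloses Kcnmb1 on the opposite strand, so its value depends on a counting rule that is not stated. The silent subunit Kcng2 lay at 102 to 123 CPM in neonatal and 159 to 169 CPM in adult controls (-0.61 ± 0.11, adjusted p = 0.000354).

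The inward rectifiers of the resting potential gave different results by gene. Kcnj2, the Kir2.1 pore, had 30.7, 27.6, 46.5 and 41.996 CPM in neonatal and 29.4, 37.1 and 29.5 CPM in adult controls, and these overlapped (log2 fold change 0.20 ± 0.19, adjusted p = 0.458). Kcnj12, the Kir2.2 pore, overlapped as well at 27.4, 28.5, 37.3 and 31.5 CPM and 36.2, 34.8 and 37.98 CPM (-0.22 ± 0.12, adjusted p = 0.171). Kcnj4 (gene ID 16520, chr15:79480226-79512511), the Kir2.3 pore, was the one Kir gene that was higher in neonates, with 1.703, 2.31, 1.47 and 2.14 CPM against 0.7598, 0.677 and 0.609 CPM. No libraries overlapped, and the log2 fold change was 1.48 ± 0.30 (adjusted p = 0.00114). Kcnj14, the Kir2.4 pore, was lower in neonates at 0.461, 0.434, 0.191 and 0.44996 CPM against 0.7198, 0.761 and 0.974 CPM (-1.09 ± 0.34, adjusted p = 0.0202). These are few reads, from 6 to 24 per library. The call was lost without adult control 7 or neonatal control 8, and also with the replicate number as a block.

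Both pores of the ATP-sensitive channels were lower in neonates. Kcnj11 (gene ID 16514, chr7:46097123-46100952), Kir6.2, the pore of the ventricular myocyte, had 73.01, 75.1, 99.5 and 74.7 CPM in neonatal controls. In adult controls it had 134, 136 and 142 CPM, above every neonatal value, with a log2 fold change of -0.77 ± 0.10 (adjusted p = 2.41e-05). Kcnj8, Kir6.1, best known from vascular muscle and pericytes, had 38.5, 31.6, 43.1 and 26.2 CPM in neonatal and 61.5, 68.7 and 60.1 CPM in adult controls (-0.86 ± 0.13, adjusted p = 0.000112). The summed CPM of 10 smooth muscle and pericyte markers overlapped between these groups, at 1992 to 2312 in neonatal and 1903 to 2165 in adult controls. Single genes of that list went both ways: 4 were higher in neonates (Cnn1, Acta2, Tagln and Cspg4) and 2 lower (Myh11 and Rgs5). The part of these cells in the Kcnj8 difference was not tested. The sulphonylurea receptor Abcc8, a partner of these pores, was lower in neonates (-0.86 ± 0.15, adjusted p = 0.000475) at 41.6 ± 10.2 against 75.7 ± 1.89 CPM. The other sulphonylurea receptor, Abcc9, named after its values were seen, did not pass the test in controls (-0.43 ± 0.17, adjusted p = 0.0589) or in recipients (-0.08 ± 0.15, adjusted p = 0.706). For the acetylcholine-gated channel, Kcnj5 (Kir3.4) was lower in neonates (-0.46 ± 0.13, adjusted p = 0.0169), and lost its call without adult control 6 or neonatal control 7. Kcnj3 (Kir3.1) did not pass the test (-0.58 ± 0.28, adjusted p = 0.131). The summed CPM of 9 atrial markers was 1629 to 5813 in neonatal and 286 to 1169 in adult controls. Gene by gene the list was mixed: of 7 tested, 1 was higher in neonates (Nppa) and 2 were lower (Nr2f1 and Stard10). Their median log2 fold change was 0.16, and the part of these markers in the channel values was not tested.

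Of the leak channels, Kcnk3 was measured at 136, 122, 156 and 119 CPM in neonatal and 212, 209 and 229 CPM in adult controls, without overlap (-0.70 ± 0.09, adjusted p = 1.95e-05). Kcnk2, the stretch-sensitive TREK-1 channel, differed less, at 13.6 to 16.4 against 19.6 to 21.8 CPM (-0.45 ± 0.10, adjusted p = 0.00366). Kcnk6, TWIK-2, did not pass the test (0.06 ± 0.17, adjusted p = 0.817), and Kcnk1, TWIK-1, was below 1 CPM in every library. The small-conductance calcium-activated channels Kcnn1, Kcnn2 and Kcnn3 gave log2 fold changes of 0.17 ± 0.12, 0.07 ± 0.13 and -0.44 ± 0.24, with adjusted p of 0.294, 0.727 and 0.184. Kcnma1, the large-conductance BK pore, was lower in neonates (-2.94 ± 0.86, adjusted p = 0.0154) from 0, 7, 0 and 2 counts in neonatal and 18, 0 and 25 counts in adult controls. It lost its call without adult control 5 or 7, and also with limma voom.

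Ventricular cardiomyocyte markers also differed by age. Their summed CPM was 49645 to 53695 in neonatal and 58958 to 60614 in adult controls, with 4 of 10 genes lower in neonates and a median log2 fold change of -0.19. Endothelial markers had 4 of 6 genes lower, with a median log2 fold change of -0.40. Skeletal muscle markers had all 4 tested genes higher in neonatal controls, with a median of 2.15. In smooth muscle and pericyte markers 4 of 10 tested were higher and 2 lower, in atrial markers 1 of 7 was higher and 2 lower, in conduction system markers 2 of 7 were higher and 2 lower, and in fibroblast markers 1 of 6 was higher and 2 lower. Of epicardial markers 2 of 5 were higher, of erythroid markers 1 of 6 was lower, and of neuron and Schwann cell markers 1 of 5 each was higher and 1 lower. Of 6 T cell and 5 neutrophil markers 0 passed the test. The part of these markers in the members' differences was not tested.

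Kcne3, Kcnab2, Kcnn4 and Kcnj4 were the 4 members higher in neonatal than adult controls. Kcne3 (gene ID 57442, chr7:100176507-100184869), a small subunit that keeps Kv7.1 open in epithelia, had 8.94, 4.61, 5.002 and 6.45 CPM in neonatal controls and 1.56, 1.35 and 2.56 CPM in adult controls. The groups did not overlap, and the log2 fold change was 1.77 ± 0.34 (adjusted p = 0.00102). Kcnab2, a Kv1 beta subunit, had 10.2, 8.06, 3.47 and 6.07 CPM in neonatal and 2.32, 3.51 and 3.25 CPM in adult controls (1.20 ± 0.32, adjusted p = 0.0107), and its neonatal control 8 lay within the adult range. Kcnn4, the intermediate-conductance channel KCa3.1 of lymphocytes, macrophages and vascular cells, had 2.77, 3.88, 0.956 and 2.6998 CPM against 0.7198, 0.846 and 1.34 CPM (1.41 ± 0.40, adjusted p = 0.0129). Again control 8 was the exception, at a level within the adult range. The call of Kcnab2 was lost without adult control 5, and that of Kcnn4 without adult control 5 or 6 and with limma voom.

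Macrophage markers were higher in the same direction, with 5 of 8 called and a median log2 fold change of 1.11. Their summed CPM was 182 to 243 in adult controls and was lowest in neonatal control 8 among the neonatal controls, as were Kcnab2, Kcnn4 and Kcnk13. Kcne3 was lowest in neonatal control 7 instead, while Kcnj4, Kcnj14 and Kcnk5 were lowest in control 8 as well. The sums of atrial, fibroblast, neutrophil and further marker lists were lowest in control 8 too. Kcnk13, the THIK-1 leak channel known from microglia, had 2.1996, 1.93, 0.605 and 1.61 CPM in neonatal and 0.9598, 0.888 and 0.609 CPM in adult controls (0.95 ± 0.39, adjusted p = 0.0726). Without neonatal control 8, 7 members were higher in neonates instead of 4. Kcnk5, a two-pore channel known from T cells and kidney, did not pass the test (0.39 ± 0.34, adjusted p = 0.406). The part of macrophages in these levels was not tested.

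**Figure D3:**
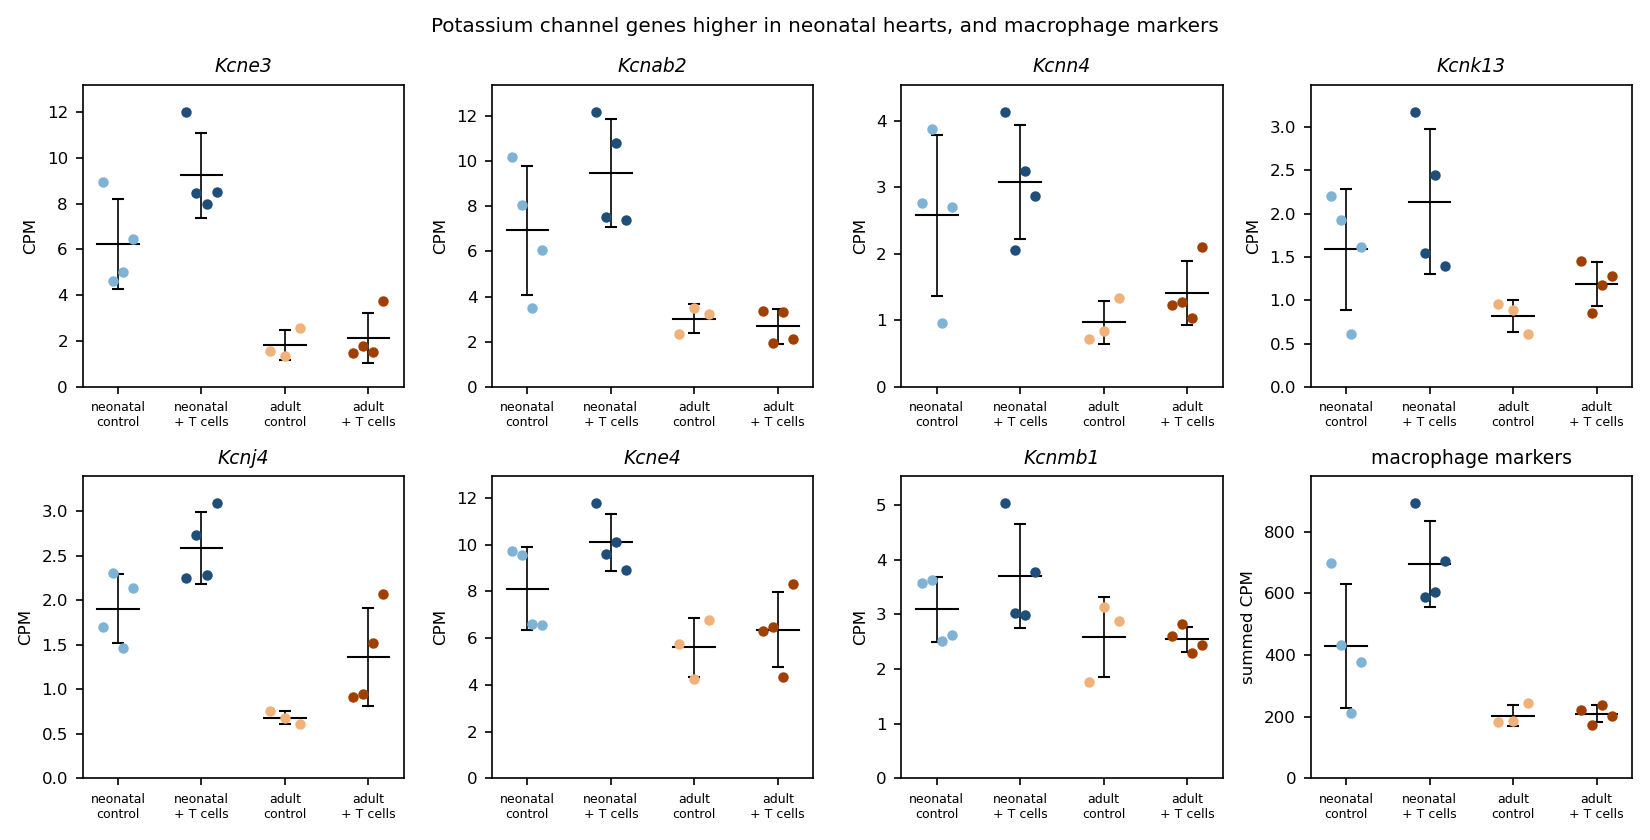
CPM of 7 members by library, with the summed CPM of 8 macrophage markers in the last panel; points are libraries, horizontal bars group means and vertical bars SD. Kcne3 and Kcnj4 separate neonatal from adult controls, while 1 neonatal control lies low for Kcnab2, Kcnn4, Kcnk13 and the macrophage markers. That control is also the lowest neonatal control for Kcnj4.

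T cell recipients gave a second comparison of the ages in libraries that shared none with the controls. In recipients 19 of 53 members were lower in neonates and 8 were higher, against 23.8% and 26.9% of all genes tested (50.7% in either direction), and the median log2 fold change was -0.30 against 0.03. Of the 24 members called in controls, 20 were also called in recipients, in the same direction (16 lower and 4 higher), and all 24 had the same sign. Across the 53 members the log2 fold changes of both comparisons had a Pearson correlation of 0.872, as a description over genes that are not independent replicates. No member was called in opposite directions. Neither the shared calls nor the correlation was computed over all genes, so this agreement cannot be called particular to the family.

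Kcna5 was lower again, at 10.7, 18.7, 15.4 and 14.1 CPM in neonatal recipients 1, 2, 4 and 5 and 31.7, 33.9, 34.04 and 28.6 CPM in adult recipients 1 to 4 (log2 fold change -1.12 ± 0.18, adjusted p = 9.91e-05). Kcnip2 had 57.3, 83.8, 74.9 and 70.7 CPM in neonatal and 139, 176, 152 and 142 CPM in adult recipients (-1.09 ± 0.15, adjusted p = 3.42e-05). Neither gene overlapped between ages. Kcnj11 (-0.95 ± 0.09, adjusted p = 4.94e-07), Kcnj8 (-1.09 ± 0.12, adjusted p = 1.93e-06), Kcnk3 (-0.85 ± 0.08, adjusted p = 4.25e-07) and Kcng2 (-0.94 ± 0.10, adjusted p = 8.24e-07) were lower in neonatal recipients too. Kcnd2 overlapped between ages at 1.44, 3.97, 3.04 and 2.91 and 5.56, 6.45, 5.23 and 2.78 CPM (-0.81 ± 0.29, adjusted p = 0.0292), and its call was lost in 7 of 16 alternative analyses, among them without adult recipient 1, 2 or 3 and without neonatal recipient 1 or 5.

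Kcnq1 passed the test in recipients, where it was lower in neonates with 67.8, 68.5, 69.2 and 73.7 CPM against 85.6, 87.3, 81.3 and 88.6 CPM (-0.30 ± 0.06, adjusted p = 0.000314). Its log2 fold change in controls was -0.08, and the difference between both age effects did not pass the test (adjusted p = 0.24). Kcnip1 was lower in neonatal recipients (-1.78 ± 0.22, adjusted p = 2.95e-05), and so was Kcnj14 (-2.11 ± 0.33, adjusted p = 4.77e-05). Kcnj5, called in controls, was not called in recipients (-0.14 ± 0.13, adjusted p = 0.371), and the difference between both age effects had an adjusted p of 0.425. The log2 ratio of Kcne1 to Kcnq1 was 1.89 ± 0.07 (SD, n = 4) in neonatal and 2.16 ± 0.11 (n = 4) in adult recipients, without overlap (exact permutation test, p = 0.0286, adjusted p = 0.0714).

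Higher in neonatal recipients were Kcne3 (2.09 ± 0.30, adjusted p = 3.11e-05), Kcnab2 (1.83 ± 0.30, adjusted p = 0.000119), Kcnn4 (1.11 ± 0.35, adjusted p = 0.0136) and Kcnj4 (0.91 ± 0.25, adjusted p = 0.00496), as in controls. Kcne3 had 12.01, 8.46, 7.98 and 8.52 CPM in neonatal and 1.46, 1.79, 1.52 and 3.76 CPM in adult recipients, with recipient 1 highest in the neonatal and recipient 4 highest in the adult group. Kcne4 (0.66 ± 0.19, adjusted p = 0.00684), Kcne2 (1.83 ± 0.62, adjusted p = 0.0191), Kcnk13 (0.85 ± 0.34, adjusted p = 0.0446) and Kcnmb1 (0.55 ± 0.21, adjusted p = 0.0374), the BK beta subunit of smooth muscle, were also higher. The calls of Kcnk13 and Kcnmb1 were lost in 6 and 8 of 16 alternative analyses, and that of Kcne2 in 3 of the 15 that gave it an adjusted p. Kcnn4 lost its call without neonatal recipient 1 (adjusted p = 0.0507). The ages overlapped for Kcnn4 and Kcnk13. All 8 macrophage markers were higher in neonatal recipients, with summed CPM of 589 to 892 against 174 to 239. Ventricular cardiomyocyte markers were lower in 8 of 10 genes and higher in 1 (Ttn), with summed CPM of 44224 to 54306 against 68630.4 to 76606. All 5 tested neutrophil markers were higher too (median log2 fold change 2.28), and so were all 4 skeletal muscle markers (2.08). Lower were 5 of 6 erythroid, 4 of 6 endothelial and 2 of 6 T cell markers. The smooth muscle and pericyte, atrial, conduction system, fibroblast and neuron lists had genes called both ways. Of epicardial and Schwann cell markers 1 of 5 each was higher. The part of all these markers in the members' differences was not tested. Without adult recipient 4 or neonatal recipient 1, 5 members were higher instead of 8.

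**Figure D4:**
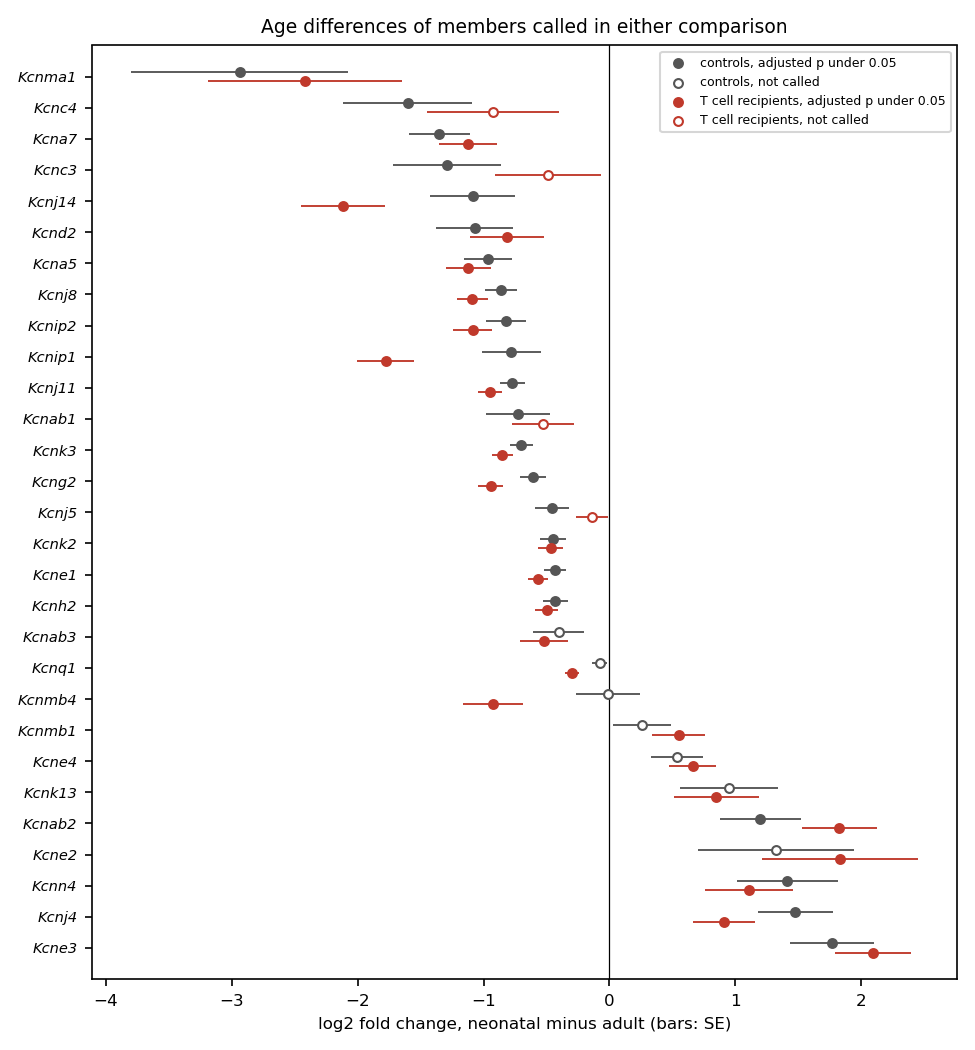
Log2 fold change (neonatal minus adult, bars SE) of 29 of the 31 members called in either age comparison, in controls and in T cell recipients; filled points passed an adjusted p of 0.05. All 29 members shown have the same sign in both comparisons, from Kcnma1 at the lower to Kcne3 at the upper end.

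Adult T cells changed no member detectably in neonatal ventricles. In edgeR 0 of 53 members passed the test, as did 0.0% of all genes, and DESeq2 and limma voom also called 0 members. At an unadjusted p under 0.05 there were 2 members (3.77%, against 3.12% of all genes), and the smallest adjusted p of the family was 0.999. The median SE in this comparison was 0.114 on the log2 scale over all genes and 0.222 over the members, so smaller changes of members could be missed. Kcna5 changed by -0.16 ± 0.18, Kcnip2 by -0.08 ± 0.15, Kcnj11 by -0.10 ± 0.09 and Kcne1 by 0.05 ± 0.08 on the log2 scale. All of these were within the spread of the libraries. Recipients and controls separated for none of the 53 members, and for only 1.36% of all genes tested. The median absolute log2 fold change of the members was 0.156, against 0.606 for age in controls. Kcne3 had the largest positive value among members that averaged 1 CPM or more (0.57 ± 0.27), at 12.01, 8.46, 7.98 and 8.52 CPM in recipients and 8.94, 4.61, 5.002 and 6.45 CPM in controls, and the groups overlapped.

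In adult hearts Kcnj4 was the only member called, and it was higher with T cells. It had 0.911, 0.942, 1.52 and 2.07 CPM in adult recipients 1 to 4 and 0.7598, 0.677 and 0.609 CPM in adult controls 5 to 7, from 20 to 55 and 15 to 19 counts per library. All recipients were above all controls, recipient 4 the most, and the log2 fold change was 1.0 ± 0.31 (adjusted p = 0.0486). The same adult controls also enter the age comparison in controls, so low values there act on both. The call was lost in 10 of the 13 alternative analyses that gave an adjusted p, with values up to 0.168, and among them without any 1 of the 3 adult controls and without adult recipient 2, 3 or 4. DESeq2 did not call Kcnj4: it gave a log2 fold change of 1.02 and no adjusted p. In this comparison 3.53% of all genes tested were higher and 5.03% lower.

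For further members the differences in adult recipients did not pass the test. Kcnj5 had 88.1, 72.996, 84.2 and 67.1 CPM in recipients and 101, 117 and 91.95 CPM in controls, without overlap (-0.40 ± 0.14, adjusted p = 0.0699). Kcnn3 had 3.14, 3.53, 4.35 and 3.23 CPM in recipients and 5.44, 5.84 and 5.19 CPM in controls, also without overlap (-0.63 ± 0.25, adjusted p = 0.115). Kcnip1 had 96.2, 87.97, 75.2 and 108 CPM in recipients and 47.3, 47.1 and 77.7 CPM in controls (0.68 ± 0.24, adjusted p = 0.087), and there recipient 3 lay below control 7. Kcnk3 was 250.5 ± 13.2 CPM (SD, n = 4) in recipients and 216 ± 10.9 CPM (n = 3) in controls (0.21 ± 0.09, adjusted p = 0.136). Of the 53 members, 10 (18.9%) had no overlap between adult recipients and controls, against 25.1% of all genes tested, of which 8.55% passed the test in either direction. An unadjusted p under 0.05 was found for 9 members (17.0%) and for 27.3% of all genes. DESeq2 called Kcnj5 lower and Kcnip1 higher. Marker genes moved in the same comparison. The summed CPM of 10 ventricular cardiomyocyte markers was 68630.4 to 76606 in adult recipients and 58958 to 60614 in adult controls, with 3 genes higher (Myl2, Myl3 and Actc1) and 1 lower (Ttn). That of 6 erythroid markers was 4936 to 6995 and 3833 to 4082, and its genes had a median log2 fold change of 0.58 without passing the test. Neither sum overlapped between the groups, and the part of these markers in the members' values was not tested.

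Transcript length moved with the adult T cell comparison. Over 15480 genes with a length, transcript length and the log2 fold change were correlated with a Spearman rho of -0.447, and over the 53 members of -0.512, so that longer transcripts tended to be lower in recipients. Both are descriptions across genes of the same libraries. With the length trend removed, Kcnj4 had a log2 fold change of 0.91 (adjusted p = 0.118), Kcnj5 of -0.32 (adjusted p = 0.169) and Kcnn3 of -0.41 (adjusted p = 0.336). No gene of the whole table passed the test after that removal. The age comparison had a correlation with length of 0.053 over all genes and -0.239 over the members in controls, and of 0.262 and -0.046 in recipients.

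**Figure D5:**
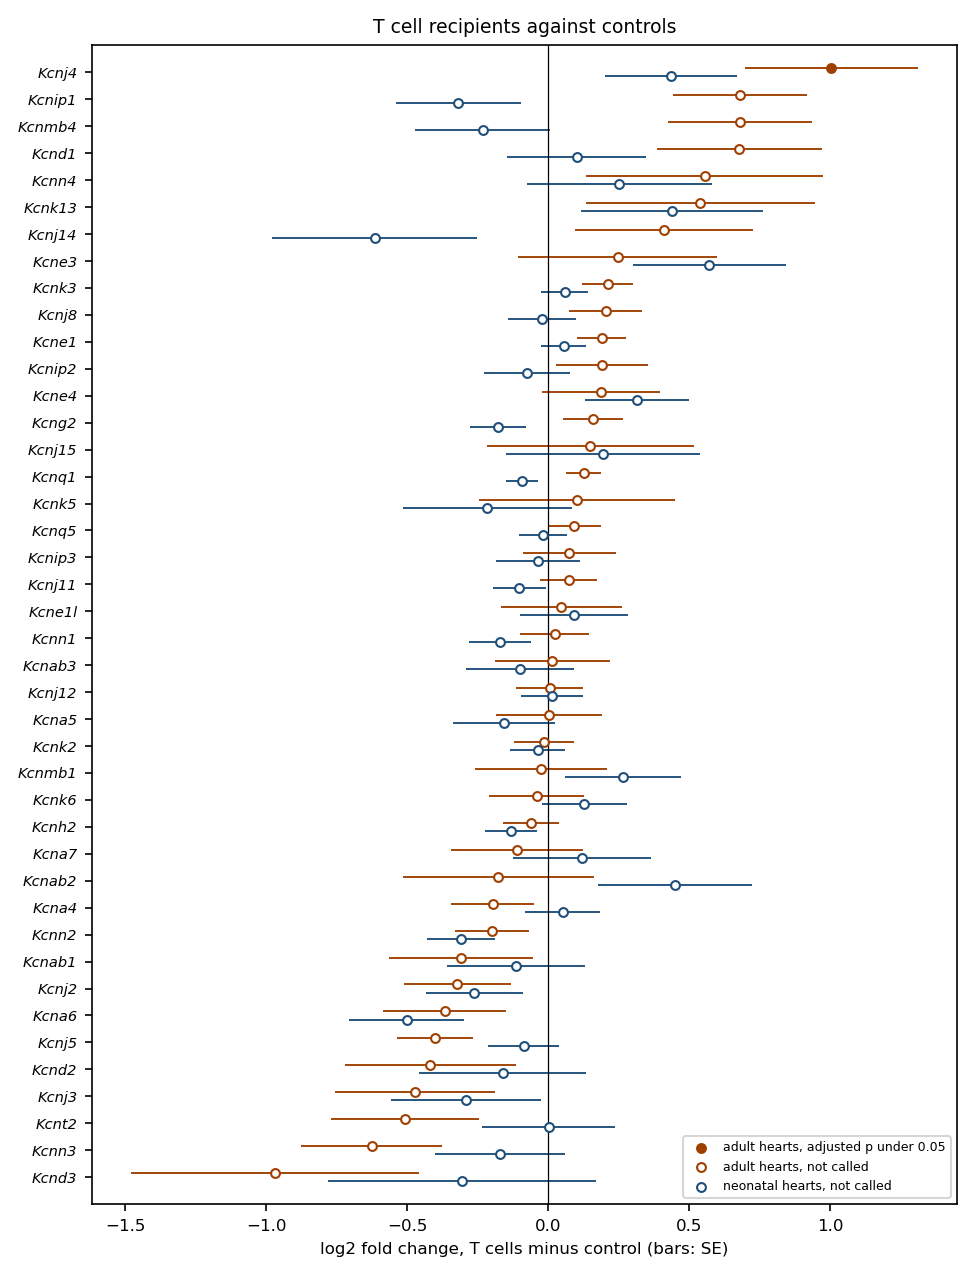
Log2 fold change (T cell recipients minus controls, bars SE) of 42 of the 44 tested members that averaged 1 CPM or more in any group, in adult and neonatal hearts; the filled point passed an adjusted p of 0.05. Kcnj4 in adult hearts is the one filled point, and no value of the neonatal hearts is filled.

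The T cell effect was also compared between ages. Of 53 members 0 differed in edgeR, as did 0.0% of all genes, with 6 members (11.3%) and 15.3% of all genes at an unadjusted p under 0.05. The smallest adjusted p was 0.206, for Kcnip1, whose log2 fold change with T cells was -0.32 ± 0.22 in neonates and 0.68 ± 0.24 in adults. For Kcnj4 these values were 0.44 ± 0.23 and 1.0 ± 0.31, and the difference had an adjusted p of 0.494. Transcripts of 8 T cell genes summed to 2.85 to 4.39 CPM in neonatal recipients, 2.69 to 4.65 in neonatal controls, 4.89 to 7.56 in adult recipients and 3.199 to 4.399 in adult controls.

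Other genes of potassium handling were also compared. Of a list of 38 genes for channel partners, the sodium-potassium pump and potassium cotransporters, 34 were tested, 14 were lower in neonatal controls and 7 higher (41.2% and 20.6%, against 15.6% and 15.4% of all genes), and the median log2 fold change was -0.20. The sodium-potassium pump returns potassium to the cell. Lower in neonates were the pump subunit Atp1b2 (-0.51 ± 0.09, adjusted p = 0.000545), the pump regulators Fxyd1 (-0.36 ± 0.09, adjusted p = 0.00565) and Fxyd6 (-0.90 ± 0.15, adjusted p = 0.000392), and Tmem38a, a cation channel of the sarcoplasmic reticulum (-0.37 ± 0.08, adjusted p = 0.00205). Irx3, a transcription factor of the ventricular conduction system, was lower in neonates as well (-0.39 ± 0.10, adjusted p = 0.00549).

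In recipients 15 genes of that list were lower and 8 higher in neonates (44.1% and 23.5%, against 23.8% and 26.9% of all genes). With T cells 0 of the 34 changed in neonates. In adults 3 were higher, among them Cav3, the caveolin of muscle (0.34 ± 0.09, adjusted p = 0.0297), and Fxyd1 (0.33 ± 0.09, adjusted p = 0.0358), and 1 was lower. None of these 4 calls was kept with the length trend removed.

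Ratios of paired subunits were compared within libraries. Besides Kcne1 to Kcnq1, these were Kcnd2 to Kcnd3, Kcnip2 to Kcnd3, Kcnj2 to Kcnj12 and Kcnj8 to Kcnj11, in 4 comparisons of groups. None of the 20 values passed after adjustment within its comparison. The smallest p of the exact permutation test here is 0.0286, which alone becomes 0.143 after adjustment over 5 ratios. A single ratio therefore could not pass, however far its groups lay apart, and these outcomes do not show equal ratios. The log2 ratio of Kcnj8 to Kcnj11 was -1.22 ± 0.24 (SD, n = 4) in neonatal and -1.12 ± 0.13 (n = 3) in adult controls, and these overlapped. In recipients it was -1.13 ± 0.03 (SD, n = 4) and -0.99 ± 0.07 (n = 4), without overlap (exact permutation test, p = 0.0286, adjusted p = 0.0714). The ratio of Kcnj2 to Kcnj12 was 0.21 ± 0.20 in neonatal and -0.19 ± 0.25 in adult controls (exact permutation test, n = 4 and 3, adjusted p = 0.286).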

How the data were processed

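Polyadenylated RNA of left ventricles was sequenced as 15 stranded libraries, per the labels' protocols. Per the submitters' processing notes, the tools were bcl2fastq 2.20.0.422, cutadapt 2.5, STAR 2.7.2b on GRCm38.p6, featureCounts 1.6.4 and DESeq2 1.24.0. The authors deposited 1 table of unscaled expected counts per gene, in which 61.1% of non-zero values were whole (within 0.005). How reads were assigned (strand, exons or whole genes, fractions) is not given in the sources used here. The deposited length equals the genomic span, so reads in introns cannot be told apart from exon reads, and 40 members overlap another gene, 6 of them on the same strand. Without a stated strand setting, reads of antisense partners cannot be separated.

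Counts were rounded to whole numbers. Genes were filtered with filterByExpr (minimum count 10, minimum total 15), scaled by the TMM method, and fitted with edgeR 4.0.16 in R 4.3.3 (robust quasi-likelihood, all 15 libraries, a coefficient for each group). All tests were two-sided. Alternatives were DESeq2 1.42.0, limma voom (limma 3.58.1), other size factors, rounding down, no filter, only the groups compared, a removed length trend (spline, 5 degrees of freedom), the replicate number as a block and leaving out each library. Ratios used log2 of counts plus 0.5, with 1 as an alternative. Transcript lengths came from the longest GENCODE M21 transcript and promoters from RefSeq. Scripts were tested on simulated data.

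Members, the list of other potassium genes and 14 lists of cell type markers were chosen with earlier results of these data known. Groups came from titles and source names. Named were members known for ventricular currents or for leukocytes and vessels, up to 10 called members per direction and comparison with an average of 1 CPM or more, and up to 4 other potassium genes per comparison. Kcnd3os, Kcnq1ot1, Kcnmb4os1 and Kcnmb4os2 were left out as non-coding. Some genes are counted in the totals but are not reported here individually, in the text or the figures.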

Additional observations from a re-analysis of the deposited data

Results flagged for a closer look

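Among groups of 4 libraries, 1 library lay farther from the rest than Dixon's criterion at 95% allows in 12 of 117 groups tested (39 members in 3 groups), where chance flags about 1 in 20 groups. Of the 12, 6 were in neonatal control 8. There Kcna5 was highest with 23.6 CPM (13.4 to 14.4 in the other neonatal controls), Kcng2 with 123 CPM (102 to 105), Kcnip2 with 106 CPM (61.5 to 68.6) and Kcnj11 with 99.5 CPM (73.0 to 75.1). In the same library Kcnj14 was lowest with 0.191 CPM (0.434 to 0.461) and Kcnk5 with 0.892 CPM (1.14 to 1.17). In neonatal recipient 1, Kcne3 was highest with 12.0 CPM (7.98 to 8.52), while Kcnh2 was lowest with 98.9 CPM (134 to 136), Kcnk5 with 0.689 CPM (1.01 to 1.04) and Kcnn1 with 6.44 CPM (7.64 to 7.87). Kcnj5 was highest in neonatal recipient 2 with 83.7 CPM (64.6 to 67.7), and Kcne3 in adult recipient 4 with 3.76 CPM (1.46 to 1.79).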

How the results depend on the processing

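No call of a named gene changed direction under any alternative that gave it a value. Leaving out 1 library gave 3 to 7 members higher and 16 to 18 lower in neonatal controls (4 and 20 with all libraries), with 7 higher without neonatal control 8. In recipients it gave 5 to 8 higher and 16 to 19 lower (8 and 19), with 5 without adult recipient 4 or neonatal recipient 1. For T cells in adults the count of 1 higher member was 0 with limma voom, without a filter on low counts, with only the compared groups and with the length trend removed, and ranged from 0 to 1 when 1 library was left out. The count of 0 lower was 1 with DESeq2 (Kcnj5), which also called 1 member higher (Kcnip1). It was 2 with only the compared groups (Kcnj5 and Kcnn3) and 0 higher, the one setting where lower calls outnumbered higher ones. Over all genes, DESeq2 called 174 differences of the T cell effect between ages and edgeR called 0.

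The numbers in the titles recur in neonatal and adult groups. Correlations of deviations between libraries with the same number and condition were 0.0721, 0.111 and -0.0709 in recipients and -0.0614 and 0.310 in controls. The last, for neonatal and adult control 7, was the highest between any neonatal and any adult library. The titles do not say that equal numbers pair libraries, and so few correlations cannot decide it. With the replicate block, 5 members were higher and 17 lower in neonatal controls, and 7 higher and 17 lower in neonatal recipients. Kcne3 lost its call in controls there (adjusted p = 0.135). Members below the floor of 3 counts cannot be compared at this depth. A paired analysis of T cell recipients with controls was not made because these groups share no number at either age.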
